A study of Caenorhabditis elegans with 26 samples.

Results

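The miR-2 seed family of *Caenorhabditis elegans* was followed hour by hour in growing larvae. The members are 5 of the 437 mature miRNA entries of the count table, taken by name: miR-2-3p, miR-43-3p, miR-250-3p and miR-797-5p, which are grouped by their shared seed, and miR-797-3p, the opposite arm of the mir-797 hairpin. All 5 passed the filter on low counts, among 217 tested miRNAs. Small RNAs of whole larvae were sequenced in a pair of strains. The mutant, *mir-235(seed_mut)*, is strain HW2643 with the allele *mir-235(xe181[seed_mutant])*, and N2 is wild type. Untreated animals of each strain, started as synchronized L1 and grown at 25 °C, gave 13 hourly libraries, the first at 18 h and the last at 30 h. The mutant carries a mutated seed in miR-235, a miRNA of another seed family, and the labels list no change in the hairpins described here. Each strain is 1 culture series with no replicate at an hour, so strain and culture cannot be told apart, and the p-values below rest on how far single hours scatter around a fitted course.

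A miRNA hairpin is cut into a duplex of a 5p and a 3p arm. Usually an arm is kept in an Argonaute protein as the guide, and the other, the passenger, is degraded. Guides pair with target mRNAs mainly through their seed, near the 5′ end, so miRNAs that share a seed can share targets. The miR-2 family is found across invertebrates, and in *Drosophila* its members repress pro-apoptotic genes such as *reaper* and *grim*. In the WBcel235 annotation the 4 hairpins lie on 4 chromosomes. *mir-2* sits on chromosome I, in an intron of *ppfr-1* on the same strand, a gene that also holds *mir-71*. *mir-43* lies on chromosome II between *mir-42* and *mir-44*, *mir-250* on chromosome V beside *mir-61*, and *mir-797* on chromosome X beside *mir-247*. The last 3 hairpins overlap no coding gene, and each neighbour named is on the same strand.

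Library totals lay between 2658960 and 4279734 counts in the mutant and between 1342771 and 3587330 in N2. The shallowest library, N2 at 23 h, stood apart. Against the mean of the hours on either side, 49 of the 217 tested miRNAs moved there by more than 1 on the log2(CPM + 1) scale, where CPM is the count per 1000000 counts of the library, and at most 15 did in any other library with an hour on both sides. The mutant at 24 h was 1 of 2 libraries with 15. let-7-5p, the heterochronic miRNA that accumulates in late larvae, stood at 751 CPM at 18 h and 38148 CPM at 30 h in the mutant, and at 641 and 35455 CPM in N2. It reached 35386 CPM in N2 at 23 h, between 8539 CPM at 22 h and 28720 CPM at 24 h. Calls that the N2 23 h and mutant 24 h libraries decide, and levels that they move most, are given with and without them. As whole larvae were sequenced, fewer expressing cells and less RNA per cell cannot be told apart.

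miR-250-3p and miR-2-3p made up nearly all reads of the 4 seed-sharing arms. miR-250-3p averaged 1528 ± 254 CPM in the mutant and 1317 ± 341 CPM in N2 (SD, n = 13 each), and ranked 42nd of the 217 tested miRNAs by mean level. Its lowest, median and highest levels were 1007, 1568 and 1956 CPM in the mutant, and 764, 1397 and 2038 CPM in N2. The strains overlapped over most of that range, and the N2 minimum was the 23 h library. miR-2-3p averaged 981 ± 522 CPM in the mutant and 677 ± 184 CPM in N2. It ran from 527 over a median of 805 to 2529 CPM in the mutant, and from 354 over 632 to 1076 CPM in N2. The high end in the mutant was the 24 h library alone, with the next highest hour at 1391 CPM, and without it the mutant mean was 852 ± 247 CPM (SD, n = 12). miR-250-3p exceeded miR-2-3p in 11 of 13 mutant libraries and in 12 of 13 N2 libraries, while their ranges of levels overlapped.

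The other members were rare. miR-797-3p averaged 72.7 ± 39.9 CPM in the mutant and 52.1 ± 23.1 CPM in N2, and exceeded miR-43-3p in 12 of 13 and in 13 of 13 libraries. miR-43-3p averaged 26.8 ± 9.0 CPM in the mutant and 22.9 ± 8.1 CPM in N2. miR-797-5p averaged 16.8 ± 7.9 CPM in the mutant and 11.7 ± 3.7 CPM in N2, so that the ranges of these rare arms overlap. Their depth limits what a single hour shows. miR-797-5p had 19 to 96 reads per mutant library and 1 to 51 per N2 library, and miR-43-3p had 37 to 163 and 12 to 104. For miR-797-5p the coefficient of variation over the hours was 47.0% in the mutant and 31.9% in N2, where counting error at its mean count gives 13.5% and 17.2%. Without the N2 23 h library the N2 value was 14.6%, under that of counting error. For miR-2-3p the variation was 53.2% in the mutant (29.0% without the 24 h library) and 27.3% in N2, against 1.78% and 2.29% from counting. Levels of different miRNAs also depend on how well each is captured in a library, which was not tested.

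**Figure D1:**
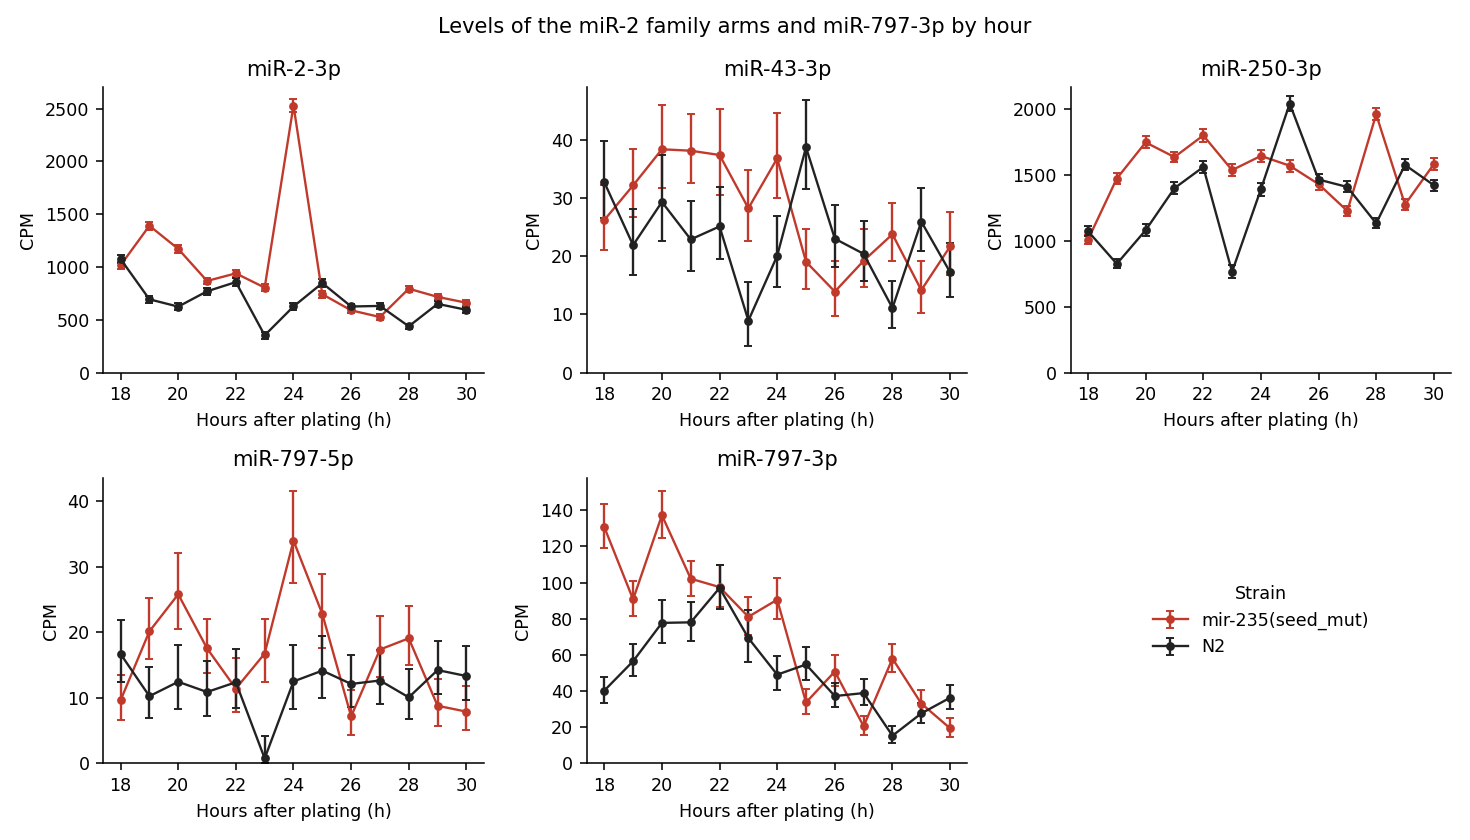
Level of each member in CPM (vertical axis, from 0) by hour after plating (horizontal axis) in *mir-235(seed_mut)* (red) and N2 (black). Points are single libraries and bars are exact Poisson 95% intervals, which cover counting error only. miR-797-3p ends the course low in both strains, miR-2-3p in the mutant stands at 2529 CPM at 24 h, and the seed-sharing arms dip in N2 at 23 h.

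miR-797-3p was the member that fell over the course by the test given below. In the mutant it was at 131 CPM at 18 h, 137 CPM at 20 h, 90.5 CPM at 24 h, 20.4 CPM at 27 h and 19.4 CPM at 30 h. In N2 it was at 40.2 CPM at 18 h, highest at 97.0 CPM at 22 h, lowest at 15.3 CPM at 28 h and at 36.3 CPM at 30 h. The mutant was thus high from the first hours, while N2 had its maximum in mid-course, and the ranges of the strains overlapped. The mean of the last 3 hours was 0.308 times that of the first 3 in the mutant (36.8 ± 19.6 against 120 ± 25.2 CPM, SD, n = 3) and 0.454 times in N2 (26.4 ± 10.6 against 58.1 ± 18.8 CPM).

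The slope of miR-797-3p, fitted on the log2 scale beside a 7 h rhythm and shared by the strains, was -0.17 ± 0.03 log2 per h (SE, edgeR quasi-likelihood test, adjusted p = 2.85e-05). It was the lowest of the 217 slopes. By strain it was -0.19 ± 0.04 in the mutant (adjusted p = 0.00057) and -0.14 ± 0.04 in N2 (edgeR, adjusted p = 0.00954), and the slopes were not shown to differ (difference, mutant minus N2, -0.06 ± 0.06, adjusted p = 0.80). The threshold throughout was an adjusted p of 0.01 over all tested miRNAs. With 1 library left out in turn, the shared and the mutant call held in 26 of 26 fits. The N2 call ended in 13 of them, in which the slope lay between -0.15 and -0.11 and the adjusted p between 0.0105 and 0.0316. The libraries whose removal ended it were N2 at 20, 21, 22, 26, 27, 28, 29 and 30 h and the mutant at 19, 20, 21, 26 and 30 h. It also ended without the N2 23 h and mutant 24 h libraries together (edgeR, adjusted p = 0.0102) and with no filter on low counts (slope -0.11, adjusted p = 0.0234).

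Among all 217, 19.8% fell and 20.7% rose by the shared slope (40.6% in either direction), so 1 falling and 0 rising members of 5 are a share near or under that of all miRNAs. By strain, 6.45% of all fell and 16.1% rose in the mutant, and 14.7% fell and 11.5% rose in N2, and miR-797-3p was the single member called in each. The median slope of the 5 members was -0.04 log2 per h, against -0.000495 over all tested miRNAs.

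The slopes of the seed-sharing arms had both signs. miR-43-3p had a slope of -0.05 ± 0.02 log2 per h (edgeR, adjusted p = 0.0378) and miR-2-3p one of -0.04 ± 0.02 (adjusted p = 0.0819). miR-250-3p had 0.04 ± 0.01 (edgeR, adjusted p = 0.0148) and miR-797-5p 0.01 ± 0.03 (adjusted p = 0.847). None of these 4 passed the threshold. Without the N2 23 h and mutant 24 h libraries, a setting chosen after the data were seen, both miR-2-3p (-0.06, edgeR, adjusted p = 0.00111) and miR-43-3p (-0.06, adjusted p = 0.00693) fell. Leaving out the mutant 24 h library alone also let miR-2-3p pass (edgeR, adjusted p = 0.0098), so that single hour decides its call. In that fit 97 of 219 miRNAs passed, and 101 of 220 did without the N2 23 h library alone, in place of 88 of 217. The number without both libraries is not given, so these calls are not shown to be particular to the members. miR-250-3p passed as rising when the mutant 27 h library was left out (edgeR, adjusted p = 0.00773), a fit in which 90 of 218 miRNAs passed. It also passed with DESeq2 (0.00932), with no filter (0.0081), with a period of 6.5 h (0.00993) and with no rhythm terms (0.00801). With no filter its N2 slope passed as well (0.08, edgeR, adjusted p = 0.00589).

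**Figure D2:**
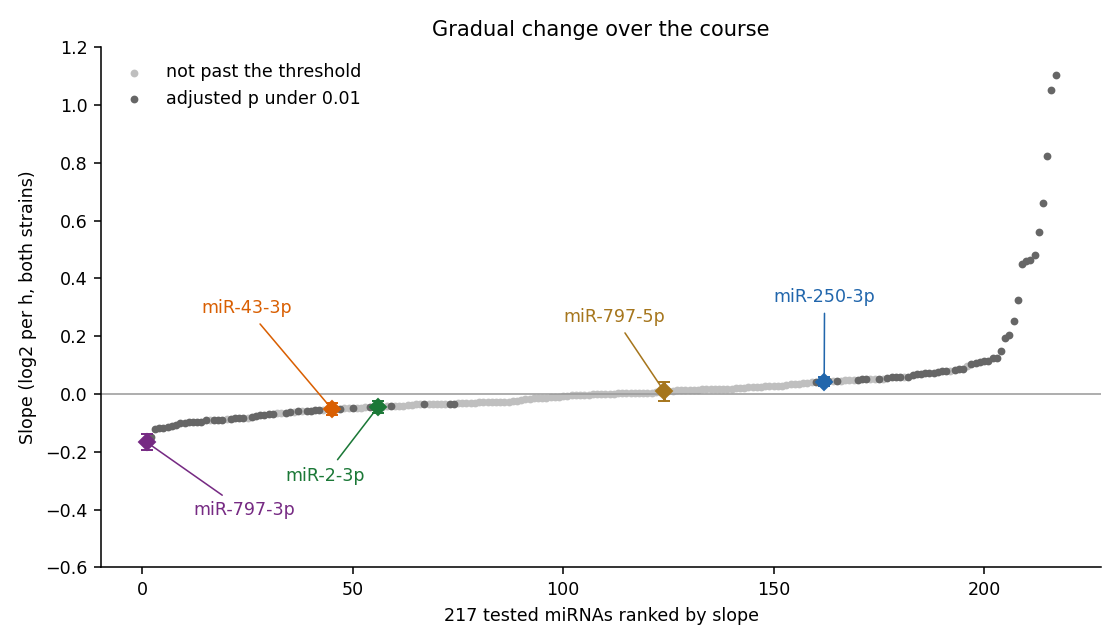
Slope over the course in log2 per h (vertical axis) of the 217 tested miRNAs ranked from lowest to highest (horizontal axis). Dark dots passed an adjusted p of 0.01, diamonds mark the 5 members with bars of 1 SE, and miR-797-3p holds the lowest rank, at -0.17.

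The make-up of the seed-sharing arms shifted over the hours in both strains, which is given as a description with no test. Each share below is of the summed counts of miR-2-3p, miR-43-3p, miR-250-3p and miR-797-5p within a library, so it needs no scaling between libraries. miR-2-3p held 49.4% in the mutant and 49.0% in N2 at 18 h, and 39.3% and 35.8% at 20 h. At 22 h it held 33.8% in the mutant and 35.0% in N2, and at 30 h 29.2% and 29.1%. miR-250-3p held nearly all of the rest, 48.9% in the mutant and 48.8% in N2 at 18 h and 69.5% and 69.4% at 30 h. The family therefore opened the sampled window with these arms at nearly equal read counts and ended it with miR-250-3p at 2.39 times miR-2-3p in both strains. As the shares add up to a whole, the opposite movement of these arms is built in and is not a second observation. In level neither slope passed the threshold (edgeR, adjusted p = 0.0819 for miR-2-3p and 0.0148 for miR-250-3p).

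The share of miR-2-3p differed between the strains by a median of 1.22 percentage points over the 13 hours. The exception was 24 h, where miR-2-3p held 59.6% in the mutant and 30.6% in N2. Without that hour the largest gap was 6.87 points, at 29 h. miR-43-3p held a mean of 1.05% ± 0.26 in the mutant and 1.11% ± 0.29 in N2 (SD, n = 13 each), and miR-797-5p 0.644% ± 0.223 and 0.567% ± 0.171. The summed level of the 4 arms was 2553 ± 633 CPM in the mutant and 2028 ± 451 CPM in N2, and 2412 ± 395 and 2103 ± 378 CPM without the mutant 24 h and N2 23 h libraries (n = 12 each).

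**Figure D3:**
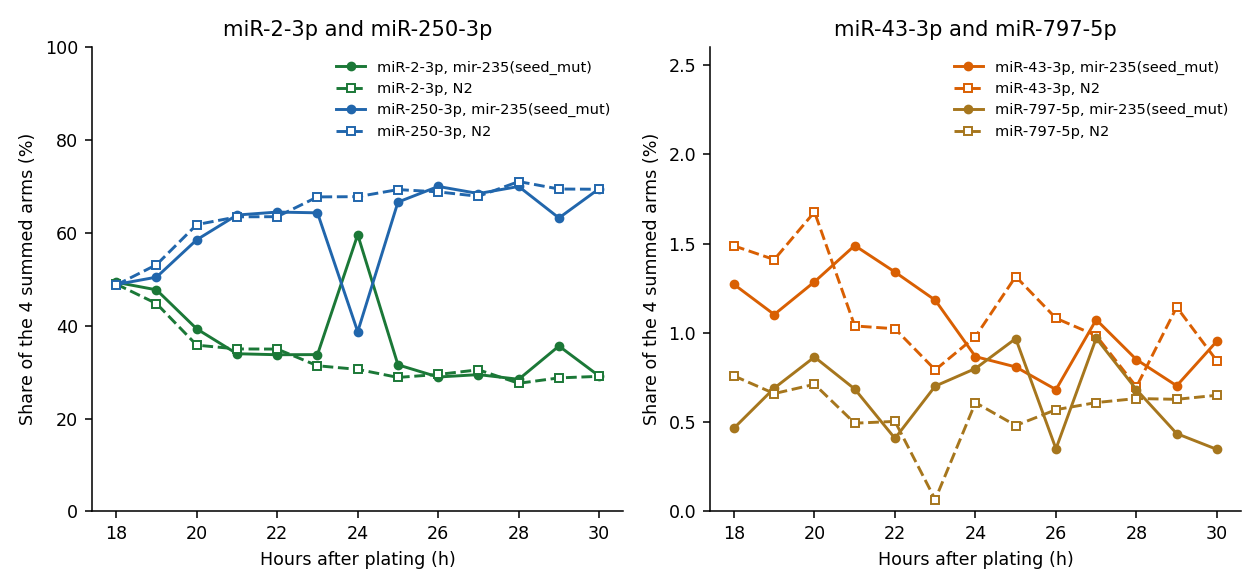
Share of each seed-sharing arm in the summed counts of the 4 arms, in percent (vertical axes, with a scale of their own for the rare arms at right), by hour after plating. Filled circles with solid lines are *mir-235(seed_mut)* and open squares with dashed lines are N2. The curves of miR-2-3p and miR-250-3p start near 49% in both strains and separate in parallel, apart from the mutant at 24 h. As shares of the same whole they mirror each other by construction.

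The arm with the family seed was not always the more abundant arm of its hairpin. In *mir-797* the 3p arm held more reads in 13 of 13 libraries of either strain, with a mean share of 78.2% ± 11.5 in the mutant and 79.0% ± 10.4 in N2 (SD, n = 13 each). In *mir-43* the 5p arm led in every library of both strains, and miR-43-3p held 28.4% ± 9.4 in the mutant and 27.7% ± 10.7 in N2. The authors listed the 3p strand of *mir-43* as its guide, by their rule the more abundant strand, in another and longer course. Read shares also depend on how well each arm is captured in a library, which was not tested. In *mir-2* and *mir-250* the arms were nearer to even. miR-2-3p held 59.8% ± 5.9 of the hairpin's reads in the mutant and 54.2% ± 4.9 in N2, and led in 13 of 13 and in 9 of 13 libraries. miR-250-3p held 64.6% ± 4.4 and 57.5% ± 8.3, and led in 13 of 13 and in 10 of 13. These means include the libraries that stood apart. The highest mutant share of miR-2-3p was 76.0%, at 24 h, and the lowest N2 share of miR-250-3p was 39.2%, at 23 h.

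The 4 N2 libraries in which miR-2-5p was ahead were those from 18 h to 21 h, where miR-2-3p held 47.4% to 48.7%, against 55.7% to 61.3% in the mutant at the same hours. Over all hours the difference between the strains in the log2 ratio of 3p to 5p counts was 0.34 ± 0.13 in *mir-2* (SE, limma, adjusted p = 0.101) and 0.43 ± 0.15 in *mir-250* (limma, adjusted p = 0.0722), mutant minus N2. With 1 library left out in turn it ranged from 0.25 to 0.38 in *mir-2* and from 0.34 to 0.49 in *mir-250*. In *mir-43* this difference was 0.07 ± 0.24 (limma, adjusted p = 0.943) and in *mir-797* -0.17 ± 0.39 (adjusted p = 0.865). None of the 4 hairpins passed, where 1.3% of all 77 hairpins with both arms tested shifted toward 5p and 0% toward 3p, and 19 had an unadjusted p under 0.05. The arms of *mir-250* had mean differences of opposite sign, 0.11 ± 0.09 for miR-250-3p and -0.33 ± 0.10 for miR-250-5p (log2, mutant minus N2, edgeR, adjusted p = 0.425 and 0.0326).

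Over the hours the balance of arms did not pass the threshold in any of the 4 hairpins, and 25 of all 77 had an unadjusted p under 0.05. The slope of the log2 ratio of 3p to 5p was -0.15 ± 0.05 per h in *mir-797* (SE, limma, adjusted p = 0.0395) and -0.10 ± 0.03 per h in *mir-43* (limma, adjusted p = 0.0292). The estimates were 0.03 ± 0.02 in *mir-2* (limma, adjusted p = 0.186) and 0.04 ± 0.02 in *mir-250* (adjusted p = 0.111). The fit of these ratios held strain and linear hour, without the rhythm terms of the level slopes. The part of a rhythm, such as that of miR-43-5p given below, in the ratio slopes was not tested. Of all 77 hairpins, 3.9% shifted toward 3p and 6.49% toward 5p. The *mir-797* ratio passed without the N2 23 h library, where 1 read of miR-797-5p stood against 93 of miR-797-3p (limma, adjusted p = 0.0053), and the *mir-43* ratio passed without the mutant 30 h library (limma, adjusted p = 0.00473). In the mutant miR-797-3p held 93.2% of the hairpin's reads at 18 h (Wilson 95% interval 90.5% to 95.1%) and 71.1% at 30 h (60.6% to 79.7%). In N2 it held 70.7% at 18 h (63.5% to 76.9%), 88.7% at 22 h (84.6% to 91.8%) and 73.2% at 30 h (65.9% to 79.4%).

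**Figure D4:**
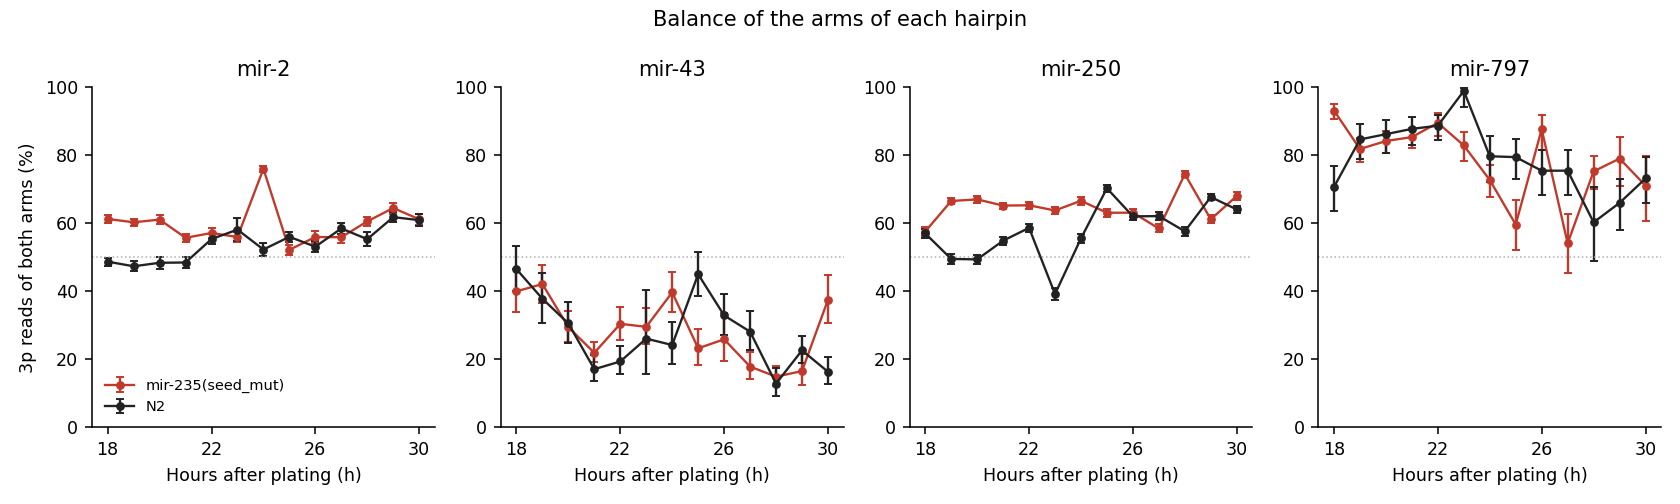
Percent of each hairpin's reads on the 3p arm (vertical axis, dotted line at 50%) by hour after plating in *mir-235(seed_mut)* (red) and N2 (black), with Wilson 95% intervals. miR-797-3p leads and miR-43-3p trails its opposite arm in every library, and *mir-2* and *mir-250* lie nearer 50%.

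The arms of a hairpin were alike in course to different degrees. Over the 26 libraries, log2(CPM + 1) of miR-2-3p and miR-2-5p correlated at a Pearson r of 0.75, whereas r was 0.26 for the *mir-43* arms, -0.27 for *mir-250* and 0.13 for *mir-797*. Without the N2 23 h and mutant 24 h libraries these were 0.77, 0.09, -0.06 and 0.25. The libraries share strain, hour and scaling, so these values are descriptions. miR-2-5p fell over the course (-0.07 ± 0.01 log2 per h, edgeR, adjusted p = 9.38e-05), whereas miR-43-5p had 0.01 ± 0.02 (adjusted p = 0.585) and miR-250-5p -0.01 ± 0.02 (adjusted p = 0.732).

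Whether the seed-mutant strain holds other levels of the family was addressed by the mean difference over the hours. It was 0.35 ± 0.15 on the log2 scale for miR-2-3p, mutant minus N2 (SE, edgeR, adjusted p = 0.104), and the mutant was above N2 at 9 of 13 hours. For miR-797-5p it was 0.32 ± 0.21 (edgeR, adjusted p = 0.287, 8 of 13 hours) and for miR-797-3p 0.27 ± 0.18 (adjusted p = 0.283, 10 of 13 hours). For miR-250-3p it was 0.11 ± 0.09 (edgeR, adjusted p = 0.425, 8 of 13 hours) and for miR-43-3p 0.07 ± 0.15 (adjusted p = 0.791, 8 of 13 hours). The 5 estimates were all above 0, with a median of 0.27 against -0.02 over all tested miRNAs, but 0 of 5 passed with edgeR, DESeq2 or limma. Of all 217, 2.76% were higher and 4.61% lower in the mutant (7.37% in either direction), and 75 had an unadjusted p under 0.05, miR-2-3p among them. With 1 library left out in turn, 1 to 21 of all miRNAs passed in place of 16, and no member did. The difference of miR-2-3p was 0.20 without the mutant 24 h library. Over these fits it ranged from 0.20 to 0.45 for miR-2-3p, 0.02 to 0.19 for miR-43-3p, 0.07 to 0.20 for miR-250-3p, 0.22 to 0.46 for miR-797-5p and 0.17 to 0.41 for miR-797-3p.

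No member passed the test of any strain difference over time, with adjusted p from 0.310 to 0.792 (edgeR, where 0% of all were called and 34 had an unadjusted p under 0.05). miR-235-3p, the edited miRNA, did not pass it either (edgeR, adjusted p = 0.0475), so a lack of difference in the members is not shown. By DESeq2 and limma 0 members were called as well. Slopes did not pass either, with differences, mutant minus N2, from -0.06 to -0.02 log2 per h and adjusted p from 0.698 to 0.893 (edgeR, 0% of all called, 15 at an unadjusted p under 0.05, and 0 members with DESeq2 or limma). Their SE were 0.03 to 0.06 log2 per h, and equal slopes are not shown.

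No member passed the test for a rhythm with a period of 7 h in either strain. The sampled window holds few cycles of that length, with 1 library per hour and strain, so a lack of rhythm is not shown. In the mutant the amplitudes from midline to peak were 0.37 ± 0.15 for miR-2-3p (log2, SE, edgeR, adjusted p = 0.272), 0.28 ± 0.15 for miR-43-3p and 0.24 ± 0.20 for miR-797-3p, and those of miR-797-5p and miR-250-3p were 0.19 and 0.11. In N2 they were 0.28 ± 0.19 for miR-797-3p (edgeR, adjusted p = 0.665), 0.27 ± 0.15 for miR-43-3p and 0.24 ± 0.25 for miR-797-5p, and 0.12 and 0.09 for miR-2-3p and miR-250-3p. Of all 217, 2.3% were rhythmic in the mutant and 5.99% in N2, with 42 and 49 at an unadjusted p under 0.05 (edgeR). With 1 library left out in turn, 1 to 18 miRNAs passed in the mutant in place of 5, and 10 to 17 in N2 in place of 13. The miR-2-3p amplitude in the mutant rests on the 24 h library and was 0.04 without it. Other amplitudes moved too, in the mutant to 0.15 to 0.44 for miR-797-3p, 0.06 to 0.38 for miR-797-5p and 0.07 to 0.19 for miR-250-3p. In N2 they ran from 0.14 to 0.36 for miR-43-3p, 0.10 to 0.29 for miR-797-5p, 0.04 to 0.17 for miR-2-3p and 0.04 to 0.14 for miR-250-3p, and no member passed in any of these fits. The rhythm difference was called for 0 of 5 members, against 0.461% of all (edgeR, 17 at an unadjusted p under 0.05), and DESeq2 and limma called 0 members in each rhythm test. At an unadjusted p miR-43-3p had 0.0434 in that test (edgeR, adjusted p = 0.569), with a fitted peak at 22.1 h in the mutant and 18.7 h in N2.

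The opposite arm, miR-43-5p, passed the rhythm test in the mutant. It had an amplitude of 0.70 ± 0.14 in the mutant (edgeR, adjusted p = 0.00916) and 0.59 ± 0.14 in N2 (adjusted p = 0.0205). The 5p arms of its cluster neighbours were rhythmic in N2, with 0.78 ± 0.12 for miR-42-5p and 0.85 ± 0.13 for miR-44-5p (edgeR, adjusted p = 0.000174 each). In the mutant they had 0.47 ± 0.11 and 0.46 ± 0.12 (edgeR, adjusted p = 0.0261 and 0.0364). The rhythm difference between the strains did not pass for miR-43-5p, miR-42-5p or miR-44-5p (edgeR, adjusted p = 0.893, 0.569 and 0.301). Rhythms particular to a strain are therefore not shown for these arms. The course of miR-43-5p resembled those of miR-42-5p (r = 0.71) and miR-44-5p (r = 0.54), while miR-43-3p and the neighbouring 3p arms gave r = 0.20 for miR-42-3p and 0.36 for miR-44-3p. Without the N2 23 h and mutant 24 h libraries the 5p values were 0.85 and 0.76 and the 3p values 0.37 and 0.50. For miR-43-3p with miR-42-3p r was 0.52 in the mutant and -0.03 in N2. The N2 value includes the 23 h library, where their changes against the adjacent hours were -1.24 and 0.25 (log2(CPM + 1)). The part of that library in it was not tested, and a difference between the strains is not shown.

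Beside *mir-250* lies *mir-61*, known as a repressor of *vav-1* in vulval precursor cells. miR-61-3p fell over the course (-0.04 ± 0.01 log2 per h, edgeR, adjusted p = 0.00919), as did miR-61-5p (-0.09 ± 0.02, adjusted p = 3.16e-05), where miR-250-3p had 0.04 ± 0.01. These are shared slopes, and that of miR-61-3p passed in neither strain alone (edgeR, adjusted p = 0.0417 in N2 and 0.143 in the mutant). miR-250-3p and miR-61-3p gave r = -0.02, and their 5p arms gave r = 0.56 (0.09 and 0.54 without those libraries). For *mir-797*, miR-247-3p of the adjacent hairpin had a slope of -0.01 ± 0.02 (edgeR, adjusted p = 0.61), and r with miR-797-3p was 0.40. For *mir-2*, miR-71-5p of the same host gene, an abundant miRNA with roles in lifespan, rose (0.04 ± 0.01 log2 per h, edgeR, adjusted p = 0.008), and r with miR-2-3p was -0.42. By strain its slope passed in neither (edgeR, adjusted p = 0.22 in N2 and 0.0191 in the mutant). It was rhythmic in both, with amplitudes of 0.63 ± 0.09 in N2 and 0.61 ± 0.09 in the mutant (edgeR, adjusted p = 0.00011 and 0.000524). miR-247 and miR-71 were added as neighbours after the data were seen.

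Among the seed-sharing arms the closest pair was miR-2-3p with miR-43-3p, at r = 0.76 over the 26 libraries and 0.75 without the N2 23 h and mutant 24 h libraries. The least alike was miR-2-3p with miR-250-3p, at 0.42 and 0.23. r of miR-797-5p with the other 3 lay between 0.60 and 0.69, and between 0.36 and 0.51 without those 2 libraries. miR-797-3p, which is not in the seed group, gave 0.56 with miR-2-3p, 0.55 with miR-43-3p and 0.10 with miR-250-3p. Without those 2 libraries these were 0.73, 0.67 and 0.15, so likeness is not shown to follow the seed. Set against tested miRNAs that averaged 50 counts or more, miR-2-3p was most like miR-53-5p (0.85), miR-242 (0.84) and miR-251 (0.83). miR-43-3p was most like miR-90-5p (0.89), miR-231-3p (0.86) and miR-242 (0.86), and miR-250-3p most like miR-1020-3p (0.83), miR-79-3p (0.77) and miR-70-5p (0.76). For miR-797-5p these were miR-74-3p (0.88), miR-60-5p (0.81) and miR-46-3p (0.81), and for miR-797-3p they were miR-231-5p (0.88), miR-61-3p (0.83) and miR-46-5p (0.82). These lists use all 26 libraries, and the part of the N2 23 h and mutant 24 h libraries in them was not tested. No family member was among the closest 3 of another, but miR-797-5p averaged under 50 counts and was never a candidate.

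Members departed from the adjacent hours in several libraries. In the mutant at 24 h, miR-2-3p had 2529 CPM (95% interval 2471 to 2588), against 805 CPM at 23 h and 743 CPM at 25 h, while miR-2-5p had 798 CPM, against 634 and 680 CPM. The change of miR-2-3p against the adjacent hours was 1.71 on the log2(CPM + 1) scale, rank 3 from the top of 217, where the median of all was 0.08. In that library miR-797-3p, miR-797-5p and miR-43-3p stood 0.78, 0.77 and 0.64 above the adjacent hours, and miR-250-3p 0.08. The changes of miR-43-5p and miR-250-5p were -0.22 and -0.12. miR-2-3p thus moved apart from both its opposite arm and the other abundant member.

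In N2 at 23 h the 4 seed-sharing arms were all below the adjacent hours. miR-797-5p had 1 read (0.745 CPM, 95% interval 0.0189 to 4.15), against 12.4 CPM at 22 h and 12.5 CPM at 24 h, and its change of -2.94 (log2(CPM + 1)) was the lowest of 217. miR-43-3p had 8.94 CPM (4.62 to 15.6), against 25.1 and 20.1 CPM, miR-2-3p 354 CPM, against 858 and 627 CPM, and miR-250-3p 764 CPM, against 1558 and 1390 CPM. Their changes were -1.24, -1.05 and -0.94, where the median of all miRNAs was -0.33. The change was 0.00 for miR-797-3p and 0.10 for miR-250-5p, and it was -1.30 for miR-2-5p and -1.64 for miR-43-5p. At 22 h, whose neighbours include this library, miR-797-5p had the highest change of 217, at 1.55. The part of that library's low total in these dips was not tested. The rare arms of *mir-797* also departed elsewhere: in the mutant the change of miR-797-5p was -1.36 at 26 h, the lowest of 217, and that of miR-797-3p was -1.36 at 27 h and 1.12 at 28 h.

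**Figure D5:**
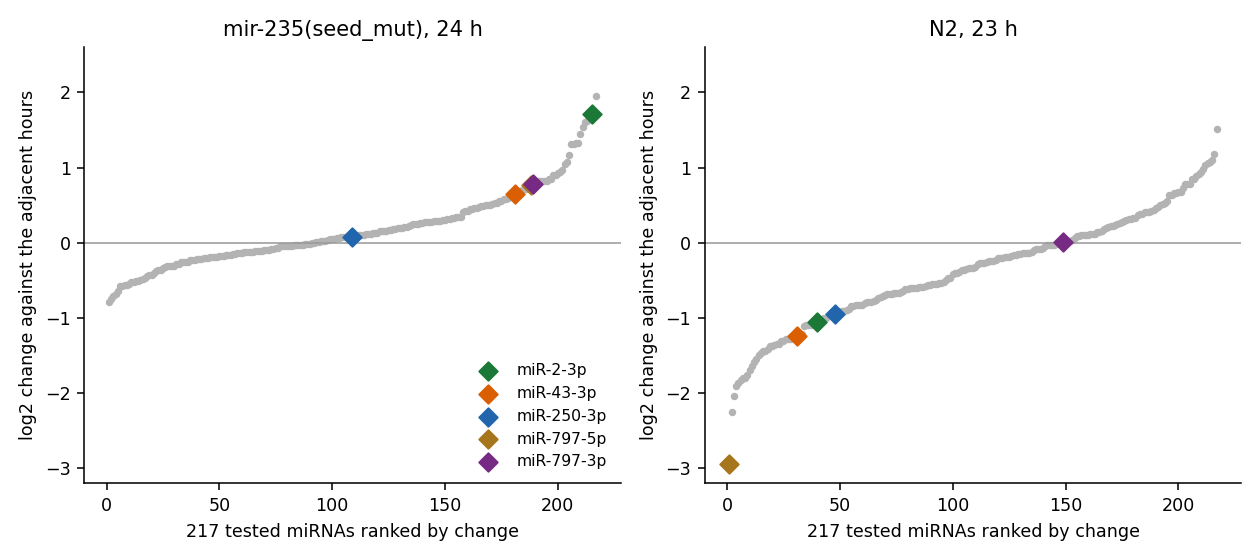
Change against the mean of the adjacent hours, on the log2(CPM + 1) scale (vertical axis), of the 217 tested miRNAs ranked by change (horizontal axis) in the mutant at 24 h (left) and in N2 at 23 h (right). Diamonds mark the members, with miR-797-5p hidden behind miR-797-3p at left. miR-2-3p stands 3rd from the top in the mutant, and miR-797-5p is the lowest of all in N2.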

How the data were processed

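The deposited raw counts are reads per mature miRNA, made by the authors, who removed adapters, mapped to ce10 using QuasR and Bowtie (up to 100 genomic matches, Bowtie version not given in the sources used here) and counted same-strand reads that start within 3 bp of the 5′ end of a miRBase 22 entry. The authors' second table holds log2 values of scaled counts plus 8, which the counts gave back within 0.0005. Library totals ranged from 1342771 to 4279734. Without molecular identifiers, intervals reflect counting error alone. Reads of both miR-235 alleles were summed per arm, leaving 437 entries.

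The test across all miRNAs was edgeR 4.0.16 under R 4.3.3 (TMM, filterByExpr with strain as group, robust glmQLFit, glmQLFTest), with Benjamini-Hochberg adjustment over 217 tested miRNAs and a threshold of 0.01. Slopes and rhythms came from strain, linear hour, and cosine and sine of a 7 h period within each strain, and strain differences from a cubic B-spline with 6 components. Arm ratios, log2((3p + 0.5)/(5p + 0.5)), were tested with limma 3.58.1 (robust) over 77 hairpins, from strain and linear hour without rhythm terms. Tests were checked on simulated counts with the same dispersion (spread beyond counting error) for every miRNA and no library that stands apart. That check does not cover the part of the N2 23 h and mutant 24 h libraries. Named miRNAs were the members, their opposite arms, cluster partners, and the 3 most alike by Pearson r. The rule also named other entries with the same seed by sequence, which was not applied, so the shared seed was taken from the family grouping and not checked here. let-7-5p was named for the course as a whole. Gene positions were read from WBcel235, whose coordinates differ from ce10 and are not given. The members and lists were chosen with earlier results of these data known. Alternatives covered scaling, filters, DESeq2 1.42.0, limma with a pseudocount of 8 or 1, thresholds, periods, spline, mutant time, the hour as a block, and each library left out.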

Additional observations from a re-analysis of the deposited data

How the results depend on the processing

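Of 53 values of single miRNAs or hairpins, recomputed 1939 times, 1873 kept their direction and their side of the threshold. The call was lost in 19 and gained in 24, and 23 changed sign, 0 of them past the threshold. The fall of miR-797-3p was kept by the shared and the mutant slope in every alternative that was run, and the numbers of members called for a strain, slope or rhythm difference or for a rhythm were 0 in every one. Taking the hour as a replicate block called 0 members for the mean and slope differences and 0 hairpins for the strain difference of arms; hours pair the strains by time only.

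The number of members called for the shared slope (1) was 3 at a threshold of 0.05 and without the N2 23 h and mutant 24 h libraries, 2 with no filter, DESeq2, a period of 6.5 h or no rhythm terms, and 1 to 2 with each library left out. In N2 (1) it was 2 at 0.05, 0 with RLE size factors, a filter at 50 mean counts, a period of 6.5 h, limma (pseudocount 1) or without both libraries, and 0 to 1 with each left out. With no filter it stayed 1, but miR-250-3p was called in place of miR-797-3p. In the mutant (1) it was 2 at 0.05, with total counts and with DESeq2, 3 without both libraries, and 1 to 2 with each left out. Hairpins called for the arm ratio over hours (0) were 2 at 0.05, 1 with a pseudocount of 8, 1 without both libraries, and 0 to 1 with each left out. Among all miRNAs, with each library left out, the shared slope called 82 to 101 in place of 88. The N2 slope called 41 to 73 in place of 57, and the mutant slope 40 to 66 in place of 49. How many of all miRNAs or hairpins passed under the other settings is not given. The higher counts of members are thus not shown to be particular to the family. Beyond a smaller set of libraries, the causes were not tested.

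The shared slope of miR-797-5p was -0.0102 with total counts, -0.00141 with limma (pseudocount 8), -0.00774 with no rhythm terms, -0.00655 without both libraries, and -0.0133 to 0.0218 with each left out. Its slope ran from -0.0485 to 0.0144 in the mutant and from -0.000583 to 0.0519 in N2 with each left out. The mutant slope of miR-250-3p was -0.000582 with total counts and -0.000887 and -0.000884 with limma (pseudocounts 8 and 1), and the N2 slope of miR-43-3p was 0.00577 with no filter. The strain difference of the *mir-797* arm ratio was 0.0349 with a pseudocount of 8, 0.19 without both libraries and -0.33 to 0.14 with each left out, and that of *mir-43* was -0.00613 without both and -0.0486 to 0.175 with each left out. Depth limits miR-797-5p most, with 1 read in N2 at 23 h.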
